A study of Mus musculus with 1 sample.

Results

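The 4 Janus kinases (JAKs) of the mouse, *Jak1*, *Jak2*, *Jak3* and *Tyk2*, and 6 genes whose products restrain them, *Socs1*, *Socs2*, *Socs3*, *Cish*, *Sh2b3* and *Cbl*, were read in the Ctrl library of sorted c-kit+ BM cells. These 10 genes were chosen by name and found by symbol among the 54532 genes of the deposited table. The study compared c-kit+ BM cells of *Gadd45g*-deficient mice with a myeloproliferative neoplasm (MPN) with those of Ctrl. The data analysed here are 1 library, that of Ctrl, from C57BL/6 mice labelled wild type. c-kit is a receptor tyrosine kinase of hematopoietic progenitors, and the label adds that the sorted cells lacked lineage markers and Sca1. The age and number of the mice, and whether they carried the Vav-Cre transgene used in the study to delete *Gadd45g*, are not given for this library. The cells with MPN were not analysed here, so each value below is a level in Ctrl, with no fold change between groups and no spread between mice.

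JAKs are tyrosine kinases bound to the inner tails of cytokine receptors that have no kinase activity of their own. When a cytokine brings receptor chains together, the JAKs phosphorylate each other, the receptor and the STAT transcription factors, which then move to the nucleus. STATs induce genes of the SOCS family, whose products bind the receptor or the JAK and carry a SOCS box that recruits a ubiquitin ligase, so that the pathway limits itself. In the bone marrow JAK2 serves the erythropoietin receptor, and activating mutations of JAK2 are the most frequent drivers of MPN.

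Values are in FPKM, which is scaled by gene length for comparison of genes within the library. Other differences between genes in how fragments were counted are not removed. The 8 housekeeping genes read, used by every cell, ran from 2.59 FPKM (*Tbp*) to 1761 FPKM (*B2m*). *Gapdh* among them had only 4.29 FPKM, and the reason was not tested. For all 10 genes FPKM times length was a whole number of fragments at a library total of 15783891, and 95% Wilson intervals were computed from these fragments. They cover counting error only. The total is the one that the value of 1 fragment gives, and the recovered fragments summed to more, 15899824 over genes with a whole multiple and 17113323 over all genes. Although the label gives a gate without lineage markers, the library also held RNA of genes that mark mature blood cells. All 9 mature neutrophil markers were above 1 FPKM, from 194 to 26677 FPKM (highest, *S100a9*), as were all 6 erythroid markers, from 1037 to 25466 FPKM (*Hba-a1*), and all 6 B cell markers, from 17.8 to 4323 FPKM (*Igkc*). The 5 markers each of T cells (2.62 to 8.55 FPKM, highest *Cd3d*), macrophages (7.37 to 51.5 FPKM, *Csf1r*) and basophils and mast cells (4.62 to 168 FPKM, *Prss34*) were also all above 1 FPKM. Of 5 megakaryocyte markers 4 were, up to 38.7 FPKM for *Ppbp*, with *Gp1bb* listed at 0. The 6 progenitor markers ran from 5.22 to 781 FPKM (*Elane*), with *Kit* itself at 7.17 FPKM. The 5 HSC markers were all below 1 FPKM, from 0.0510 to 0.844 FPKM (*Hlf*). HSCs carry Sca1 in the study's gating, and the gate on the label leaves out cells with Sca1. In a bulk sample fewer cells of a type and less RNA per cell cannot be told apart, and how much of each level below came from mature cells was not tested.

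All 4 JAK genes and 5 of the 6 regulators reached 1 FPKM, the level taken as detected. That level was reached by 22.2% of all genes and by 46.8% of the 21995 protein-coding genes. At 10 FPKM or more there were 6 of the 10 genes, against 21.2% of protein-coding genes. The median of the 10 was 16.4 FPKM, beside 8.66 FPKM over the 10290 protein-coding genes that were detected, and 7 of the 10 lay above the latter. The same 7 lay above *Kit*, but *Kit*, at 7.17 FPKM, was itself below 8.66 FPKM, so most detected protein-coding genes lay above it as well. The levels spanned a range of 185-fold. The kinases ran from 9.64 to 59.1 FPKM and the regulators from 0.319 to 31.5 FPKM, so the groups overlapped, and the low end was held by SOCS box genes.

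**Figure D1:**
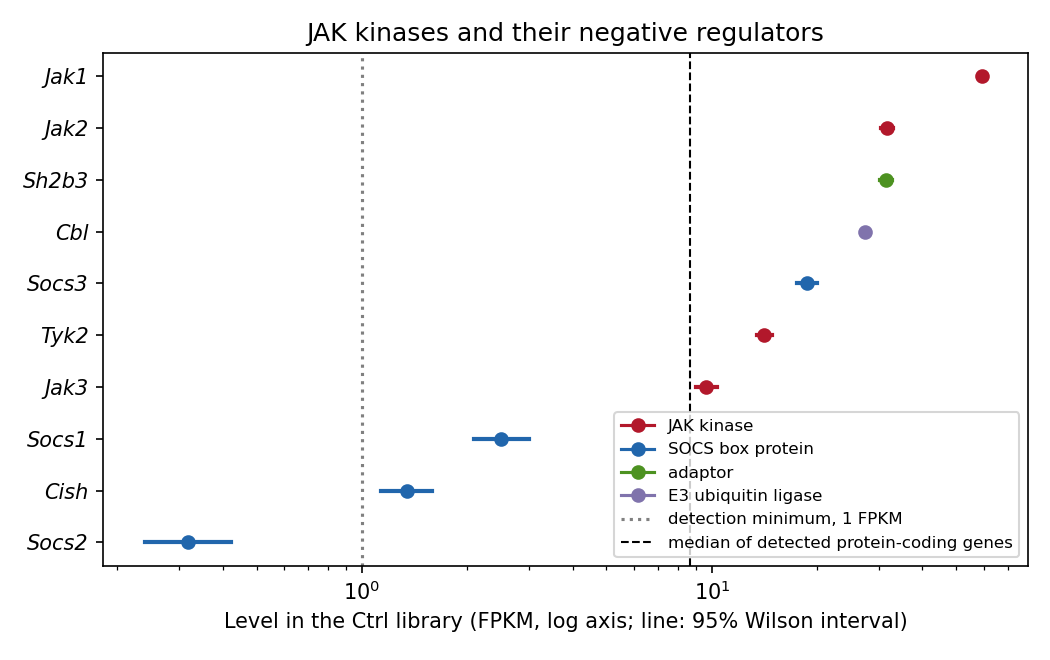
Level of each of the 10 genes in the Ctrl library in FPKM on a log axis. Points are the deposited values coloured by role, lines are 95% Wilson intervals (hidden by the point where narrow), the dotted line is 1 FPKM and the dashed line is the median of detected protein-coding genes, 8.66 FPKM. *Jak1* is highest at 59.1 FPKM, and *Socs1*, *Cish* and *Socs2* are the 3 genes below the dashed line.

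*Jak1*, which serves receptors of interferons, of the interleukin-6 family and of the common gamma chain family, had the highest level of the 10 genes. The gene (ENSMUSG00000028530, chr4:101152367-101265282 of GRCm38, reverse strand) had 59.1 FPKM from 6745 recovered fragments (interval, 57.7 to 60.6). Only 830 protein-coding genes were at or above this level, so that 96.2% were below it. *Jak2* (ENSMUSG00000024789, chr19:29251828-29313080, forward strand) followed with 31.7 FPKM from 2520 fragments (interval, 30.5 to 33.0). *Jak1* was thus 1.86 times *Jak2* (95% exact interval of the ratio, 1.78 to 1.95), a difference beyond counting error.

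*Tyk2*, which is known for its part in signalling by type I interferons and interleukin-12, and *Jak3*, which pairs with the common gamma chain of lymphoid cytokine receptors, were lower. *Tyk2* (ENSMUSG00000032175, chr9:21104068-21131243, reverse strand) had 14.1 FPKM from 1531 fragments (interval, 13.4 to 14.9). *Jak3* (ENSMUSG00000031805, chr8:71676296-71690575, forward strand) had 9.64 FPKM from 814 fragments (interval, 9.0 to 10.3). *Jak2* was 2.25 times *Tyk2* (interval, 2.11 to 2.40), *Tyk2* was 1.47 times *Jak3* (interval, 1.35 to 1.60), and *Jak2* was 3.29 times *Jak3* (interval, 3.04 to 3.57). With the longest transcript as length these ratios were 1.58, 1.58 and 2.49, and without division by length 1.65, 1.88 and 3.10. The order *Jak1*, *Jak2*, *Tyk2*, *Jak3* therefore held beyond counting error at each step. *Jak3* was nevertheless above 53.7% of the detected protein-coding genes. The T cell and B cell markers that were read beside it summed to 25.3 and 6690 FPKM, and the part of lymphoid cells in the level of *Jak3* was not tested.

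Of the summed FPKM of the 4 kinase genes, *Jak1* held 51.6%, *Jak2* 27.7%, *Tyk2* 12.3% and *Jak3* 8.41%. *Jak1* and *Jak2* thus made up most of the JAK mRNA in this library. The share of *Jak1* was 57.4% when the longest annotated transcript was used as the length of a gene and 58.1% when fragments were not divided by length.

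**Figure D2:**
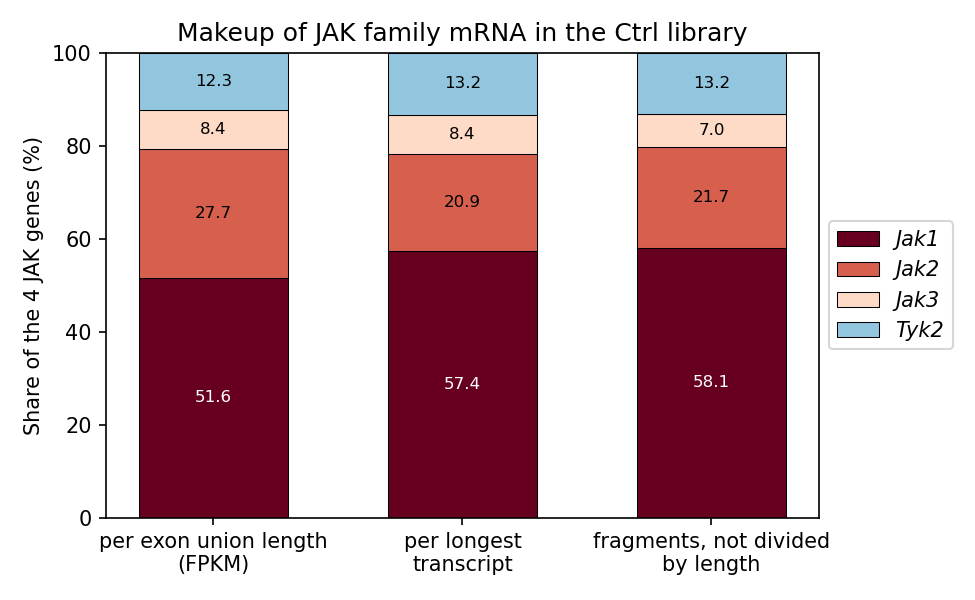
Share of the 4 JAK genes in percent, as stacked bars that add up to 100, under 3 treatments of gene length. *Jak1* is the largest part in each bar, from 51.6% to 58.1%, and the order of the other 3 genes is the same in all bars.

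The receptor chains that these kinases serve were read in the same library. Of 21 chains listed, 17 were at 1 FPKM or more, with a median of 18.9 FPKM. *Csf3r*, the receptor of the granulocyte growth factor G-CSF, was the highest at 212 FPKM. *Epor*, the erythropoietin receptor, which works through JAK2, had 49.9 FPKM. *Il2rg*, the common gamma chain partner of JAK3, had 15.8 FPKM. *Ifnar1*, the interferon receptor chain that binds TYK2, had 20.0 FPKM, while *Il12rb1*, another TYK2 partner, had 0.849 FPKM. *Il6st*, the signalling chain of the interleukin-6 family, had 6.02 FPKM, and *Prlr*, the prolactin receptor, was the lowest with 0.0165 FPKM from 4 fragments.

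All 7 STAT genes were detected, with a median of 11.1 FPKM. *Stat6*, the mediator of interleukin-4 signals, was the highest at 51.3 FPKM, and *Stat4*, which acts below interleukin-12, the lowest at 3.89 FPKM. *Stat5b*, which with *Stat5a* carries the signals of the erythropoietin receptor, had 32.3 FPKM, and *Stat5a* had 8.71 FPKM.

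Among the regulators, the 4 SOCS box genes had the lowest levels, and *Socs3* was the highest of them. *Socs3* (ENSMUSG00000053113, chr11:117966079-117970047, reverse strand), whose product binds receptors such as gp130 and the G-CSF receptor and blocks the attached JAK, had 18.7 FPKM from 853 fragments (interval, 17.5 to 20.0) and was above 87.0% of protein-coding genes. *Socs1* (ENSMUSG00000038037, chr16:10782240-10785536, reverse strand), which inhibits JAKs directly and is best known as a brake on interferon signals, had 2.51 FPKM from 115 fragments (interval, 2.09 to 3.01). *Socs3* was 7.46 times *Socs1* (interval, 6.13 to 9.15).

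*Cish* (ENSMUSG00000032578, chr9:107296026-107302784, forward strand), a STAT5-induced gene whose product competes for docking sites on receptors, had 1.34 FPKM from 136 fragments (interval, 1.13 to 1.59), so that *Jak2* was 23.6 times *Cish* (interval, 19.9 to 28.3). That ratio was 17.3 with the longest transcript as length and 18.5 without division by length. *Socs2* (ENSMUSG00000020027, chr10:95385362-95417180, reverse strand), known as a brake on growth hormone signals, had 0.319 FPKM from 48 fragments (interval, 0.241 to 0.423) and was the only one of the 10 below 1 FPKM. *Socs3* was 58.6 times *Socs2* (interval, 43.8 to 80.1), while *Cish* was 4.21 times *Socs2* (interval, 3.01 to 5.98). These ratios rest on the length given to *Socs2*. The annotation gives *Socs2* 14 transcripts with 9531 bases of exon in all, against 4242 bases in the longest of them. With longest transcripts as length the level of *Socs2* was 0.717 FPKM, still below 1, and the ratios were 29.5 and 2.56. Without division by length they were 17.8 and 2.83.

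The other 4 genes of the family, which are not known mainly as cytokine-induced, were read beside these. *Socs4* had 7.57 FPKM, *Socs7* 5.76 FPKM, *Socs6* 2.93 FPKM and *Socs5* 2.25 FPKM, the last 2 without an interval since their multiples were not whole. Of the summed FPKM of all 8 SOCS genes, *Socs3* held 45.2%, *Socs4* 18.3%, *Socs1* 6.06%, *Cish* 3.24% and *Socs2* 0.771%. All 6 genes listed for elongin-cullin ubiquitin ligases, the kind that SOCS boxes recruit, were detected. They ran from 3.55 FPKM for the scaffold gene *Cul5* to 65.8 FPKM for the elongin gene *Elob*.

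Since SOCS genes are known STAT targets, the promoters of the 10 genes were searched for the STAT motif TTCNNNGAA, whose letters read the same on both strands. RefSeq promoters on GRCm38.p6, from 250 bases before to 50 after a start site, were at hand for 9 of the 10 genes, all but *Socs2*. The motif was found in 2 of the 9, *Cish* and *Socs3*, and in 8.30% of all 32851 promoters. The *Cish* promoter held it 2 times, and 0.457% of all promoters held it 2 times or more. Both genes belong to the SOCS family, and the level of *Socs3* was 13.9 times that of *Cish* (interval, 11.6 to 16.8). That ratio was 11.5 with the longest transcript as length and 6.27 in fragments not divided by length. The windows of 30 bases around the motifs are shown for both genes with a match. They are written 5′ to 3′ on the strand of the gene, with the motif in capitals.
Cish, chr9:107296654-107296683, forward strand: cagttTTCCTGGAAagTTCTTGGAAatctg
Socs3, chr11:117969501-117969530, reverse strand: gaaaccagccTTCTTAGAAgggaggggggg
In *Cish* the motifs begin at base 1 and base 12 of the RefSeq transcript. By GENCODE the window is in the noncoding part of the first exon of 1 coding transcript. It ends 27 bases before the start of another and 229 bases before that of a further coding transcript. In *Socs3* the motif begins 154 bases before the RefSeq start, and the window lies in an intron of a noncoding transcript, 315 bases before the GENCODE coding transcript. A match is a description of the letters and not a site of binding. The promoter with a pair of motifs belonged to the gene with the lower level, but whether motif number and level are linked was not tested.

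All 11 other genes listed as known to be induced by STAT5 or STAT3 were detected, with a median of 17.4 FPKM, beside 1.92 FPKM for *Socs1*, *Socs2*, *Socs3* and *Cish*. *Junb*, a transcription factor gene, was the highest at 306 FPKM, and the kinase gene *Pim1* had 119 FPKM and the survival gene *Bcl2l1* 65.0 FPKM. *Ccnd1*, which encodes cyclin D1, was the lowest at 4.01 FPKM, which is above *Socs1*, *Cish* and *Socs2*. Of the 11 genes 7 were at 10 FPKM or more, and the median of the 11 was below *Socs3*, at 18.7 FPKM.

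The remaining regulators act outside the SOCS family and had levels near *Jak2*. *Sh2b3* encodes LNK, an adaptor that binds JAK2 and restrains growth of stem and progenitor cells. The gene (ENSMUSG00000042594, chr5:121815488-121837646, reverse strand) had 31.5 FPKM from 2387 fragments (interval, 30.2 to 32.7). *Sh2b3* and *Jak2* did not differ beyond counting error, with a ratio of 0.991 (interval, 0.937 to 1.049). *Cbl* (ENSMUSG00000034342, chr9:44142976-44234049, reverse strand), which encodes an E3 ubiquitin ligase that marks activated receptors and kinases for degradation, had 27.5 FPKM from 5356 fragments (interval, 26.8 to 28.2), which is 0.866 times *Jak2* (interval, 0.826 to 0.908).

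Relatives of these genes were read for comparison. *Sh2b1*, which is known to enhance JAK2 activity rather than restrain it, had 29.6 FPKM, and the ratio of *Sh2b3* to *Sh2b1* was 1.06 with an interval of 0.9997 to 1.13 that holds 1. *Sh2b2* had 3.97 FPKM, so that *Sh2b3* was 7.92 times as high (interval, 7.06 to 8.90), or 4.65 times with the longest transcript as length. *Cblb*, the paralog of *Cbl* best known in T cells, had 3.15 FPKM, and *Cbl* was 8.74 times *Cblb* (interval, 7.99 to 9.58). The ratio of *Cbl* to *Cblb* was 6.02 with the longest transcript as length and 10.3 without division by length. *Cblc*, an epithelial paralog, is listed at 0, and the 3 fragments that a count of 0 allows would give 0.0748 FPKM. *Cbll1*, a more distant relative, had 3.54 FPKM.

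The tyrosine phosphatases that act on JAKs or their receptors were all detected, 5 of 5, with a median of 39.9 FPKM. *Ptpn6*, which encodes SHP-1, a phosphatase of blood cells, was the highest at 167 FPKM (interval, 163 to 170), above each of the 10 genes. *Ptpn2*, whose product acts on JAK1 and JAK3, was the lowest at 11.9 FPKM. The 4 PIAS genes, named as inhibitors of activated STATs, were detected as well, from 4.10 FPKM for *Pias2* to 10.7 FPKM for *Pias4*.

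**Figure D3:**
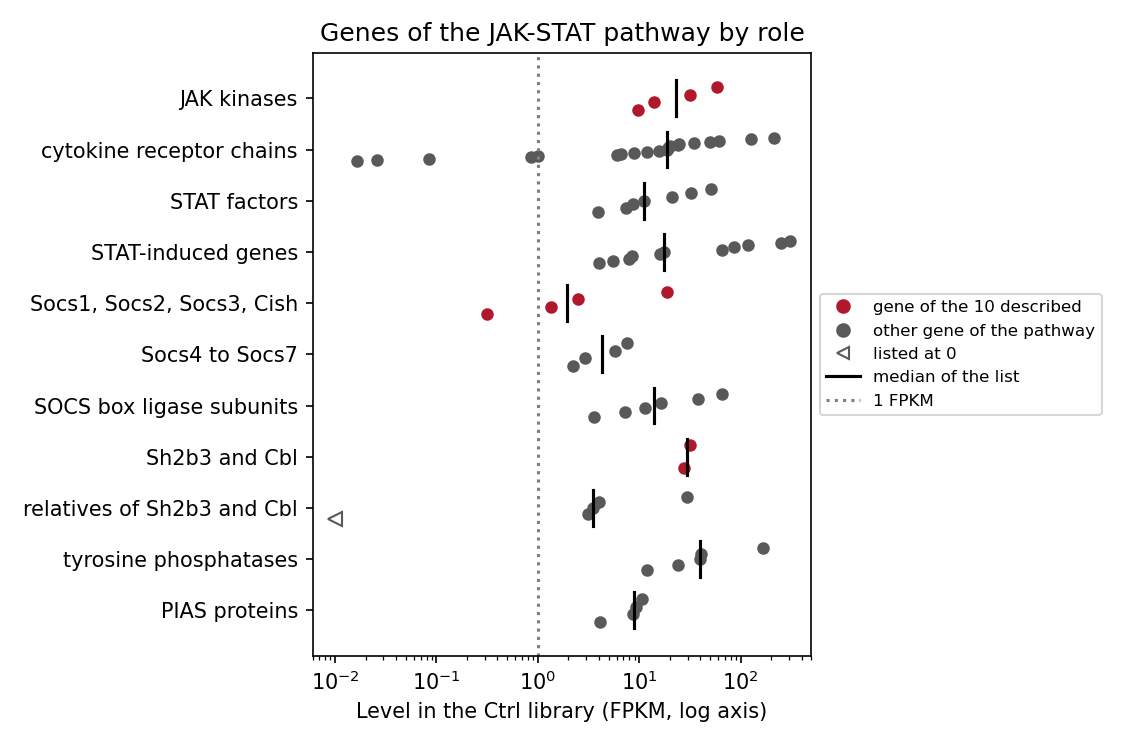
Level of each gene of the pathway in the Ctrl library in FPKM on a log axis, with 1 row for each role. Red points are the 10 genes described, grey points other genes of the pathway, black bars medians, the dotted line 1 FPKM and the open triangle a gene listed at 0 (*Cblc*). The row of *Socs1*, *Socs2*, *Socs3* and *Cish* has the lowest median, 1.92 FPKM, and the phosphatases the highest, 39.9 FPKM.

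In the whole order, *Jak1*, *Jak2*, *Sh2b3*, *Cbl*, *Socs3*, *Tyk2*, *Jak3*, *Socs1*, *Cish* and *Socs2*, 8 of the 9 neighbouring pairs differed beyond counting error. The exception was *Jak2* and *Sh2b3*. The order depends in part on how length is counted. With the longest annotated transcript *Sh2b3*, at 35.1 FPKM, was above *Jak2*, at 31.7 FPKM. Without division by length *Cbl*, the gene with the most exon bases (12345), moved to the second place, *Tyk2* passed *Socs3*, and *Cish* passed *Socs1*. *Jak1* stayed at the top, *Jak3* at place 7 and *Socs2* at the bottom in all 3 orders.

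**Figure D4:**
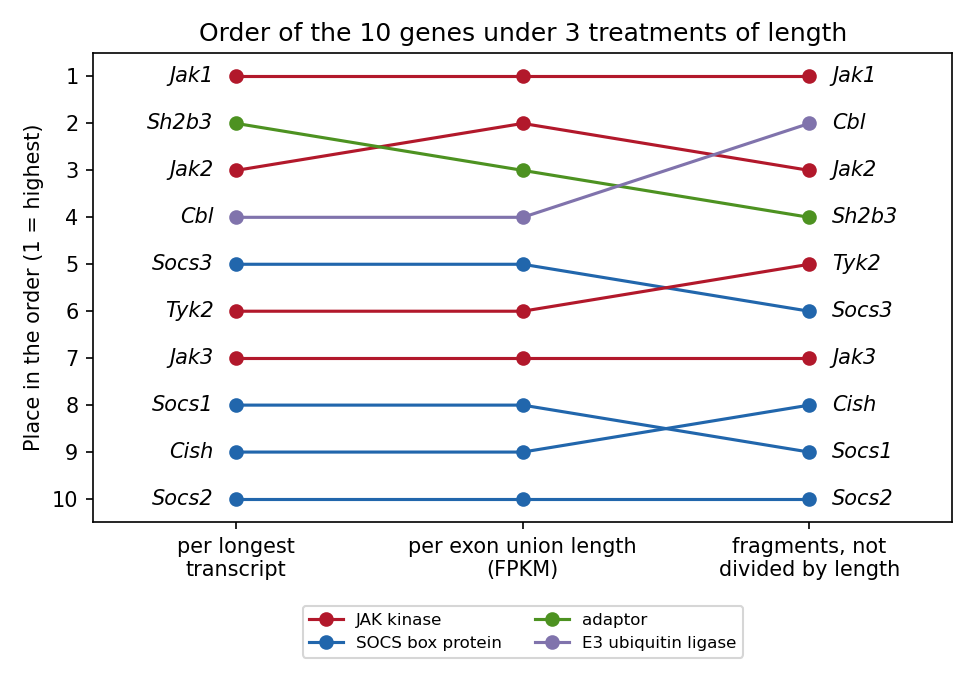
Place of each of the 10 genes in the order of levels, 1 being the highest, under 3 treatments of gene length in the Ctrl library, with lines joining the same gene. *Jak1*, *Jak3* and *Socs2* keep places 1, 7 and 10, while *Cbl* moves from place 4 to 2 without division by length.

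The kinases and the SOCS genes also differ in gene structure. The longest transcripts of the 4 kinase genes have 22 to 25 exons, while those of *Socs1* and *Socs3* have 2, that of *Cish* has 3 and that of *Socs2* has 5. Some exon bases are shared with other genes, and how the counting treated fragments there is not given in the sources used here. *Jak3* shares 404 of its 5352 exon bases with *Insl3* on the same strand, which had 1.32 FPKM. *Tyk2* shares 554 of 6865 with a gene on the other strand, *1700084C06Rik*, which is listed at 0. *Cish* shares 740 of 6419 with *Gm17040* and *Gm17041* on the other strand, which had 1 recovered fragment and none. The bases shared with other genes are 404 of 623 in *Insl3*, 746 of 750 in *1700084C06Rik*, 261 of 1150 in *Gm17040* and all 479 in *Gm17041*. The low values of these partners therefore do not show how many fragments fell in the shared bases. *Sh2b3* shares 99 with *Atxn2* and *Jak1* 4 with *Raver2*, and the other 5 genes share none.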

How the data were processed

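An Illumina HiSeq instrument was used to sequence RNA of c-kit+ BM cells, of which 1 Ctrl library was analysed. The authors deposited FPKM, a fragment number divided by gene length and by library size. The submitters' processing notes name HISAT2 2.0.5, featureCounts 1.5.0-p3 and mm10. The annotation, strandedness and multi-mapping setting are not given in the sources used here.

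GENCODE M21 gave gene names, coordinates and lengths on GRCm38, the assembly also called mm10. FPKM times exon union length, the number of bases in any exon of a gene, was divided by the value of 1 fragment and rounded. Multiples within 0.01 of a whole number were read as recovered fragments. Recovery was tried on simulated data made with the same formula (100% of 19333 genes with a right length came back). This checks the arithmetic and not whether the deposited values follow that formula. No test was run, since there is 1 library. Ratios have exact binomial intervals conditional on both genes' fragments. The 10 genes and all lists were chosen with earlier results of these data known. Genes were named if they were 1 of the 10, a relative, or the highest or lowest of a list, along with *Kit* and the highest marker of each cell type list. Other cytokine receptors, STAT factors and STAT-induced genes named for their known role beside a gene of the 10 were chosen after their values were seen, as was *Gapdh*. Alternatives were other detection minimums, totals, lengths and motif spacings. Protein sequences were not analysed here. A receptor gene is not reported here. Scripts ran in Python 3.11.15 with scipy 1.17.1, numpy 2.4.6, matplotlib 3.10.9 and pandas 2.3.3.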

Additional observations from a re-analysis of the deposited data

How the results depend on the processing

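No paired analysis was possible because Ctrl has 1 library. The median of the 10 genes, 16.4 FPKM, was 17.9 FPKM if the total omitted the 10 most abundant genes, which multiplies every gene by 1.09, 16.7 FPKM without mitochondrial genes, and 20.6 FPKM with the longest annotated transcript as length. The ratio of *Jak1* to *Jak2*, 1.86, was 2.74 with the longest transcript and 2.68 without division by length, and the share of *Jak1* among the JAK genes, 51.6%, was 57.4% and 58.1%. With the longest transcript as length, the levels of 8 of the 10 genes fell outside their intervals. Of the 17 pairs chosen for ratios, 13 fell outside theirs with that length and 4 stayed within. Without division by length 11 fell outside with no change of direction, 3 stayed within, and 3 turned. That is by construction, since the genes differ in length. Among neighbours in the order *Socs3* to *Tyk2* turned too, from 1.32 to 0.557. *Socs1* to *Cish* went from 1.87 to 0.846, *Cbl* to *Jak2* from 0.866 to 2.13, and *Sh2b3* to *Cbl* from 1.14 to 0.446. The number of the 10 genes detected, 9, was 10 at 0.1 FPKM, 6 at 10 FPKM and 10 at 10 recovered fragments. With 4 bases in place of 3 between TTC and GAA, 0 of the 9 promoters held a match, and with either spacing 2 did. The depth limits *Socs2* most, with 48 fragments, and differences between mice are not measured at any level.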
